A study of Rattus norvegicus with 12 samples.

Results

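The genes described here are 47 of 50 listed endothelial and vascular genes, measured in the whole mammary glands of 12 ovariectomized Lewis rats. They were taken from the series' probe sets that carry one of the listed symbols alone, at 1 probe set per gene, out of 14506 genes that have such a probe set on the array. The listed genes Vwf, Ednrb and Ephb4 had no single-symbol probe set in the annotation used and were not analysed here, and Figf was matched through its current symbol, Vegfd. The 47 genes comprise 31 general endothelial genes, 4 lymphatic genes and 12 genes of angiogenic signals. Members were chosen by symbol, with earlier results of these data known.

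Each group held 3 rats with 1 array per rat. One group received 17β-estradiol (E2, 4 μg/kg/day) together with 3-methylcholanthrene (3-MC, 15 mg/kg/day, a polycyclic aromatic hydrocarbon that activates the aryl hydrocarbon receptor), another E2 alone, another 3-MC alone, and the controls vehicle alone. All 12 rats were females of the inbred Lewis strain whose ovaries had been removed at about 10 weeks of age, and all were injected under the skin with the same vehicle of dimethyl sulfoxide in castor oil. They were treated 3 times at 24-hr intervals and the glands were removed 24 hr after the last dose, while the sample labels give a treatment time of 48 h. RNA was extracted from frozen whole glands, so that ducts, fat, connective tissue, vessels, blood cells and any attached muscle share each array. In such bulk RNA, fewer endothelial cells, less RNA per endothelial cell and a larger share of RNA from other cells cannot be told apart.

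Blood vessels of the mammary fat pad are lined by endothelial cells, which hold together through VE-cadherin and claudin junctions, exchange solutes through fenestrae and caveolae, and keep their identity through ETS and SOX family transcription factors. Their growth is steered by VEGF ligands acting on Kdr and Flt1, by angiopoietins acting on Tek, and by Notch signaling between neighboring cells through Dll4, while lymphatic endothelium depends on Prox1 and on VEGF-C acting on Flt4. The mammary vasculature is known to remodel with the hormonal state of the gland.

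Values are linear array intensities as the authors summarized them, and comparisons were made on log2(intensity + 16) with limma over 23371 probe sets, so that a log2 difference slightly understates the change of a dim gene. A gene was called changed when it differed by at least 1.5-fold and its p, adjusted by Benjamini-Hochberg across all of these probe sets, was under 0.05. The array medians lay between 85.7 and 109.5. All 47 genes passed the filter on low intensity and exceeded the 20th percentile of every array, which lay between 29.5 and 40.9. The 8 defining markers of endothelium (Pecam1, Cdh5, Kdr, Tek, Tie1, Emcn, Esam and Robo4) had intensities of 147 to 1246. In 34 genes the highest of the 12 rats was less than 2 times the lowest, and in 13 genes it was 2 times or more. The largest spread was that of Pdpn, from 690 to 3089 over all rats, while Notch4 and Jag1 varied by less than 1.5 times.

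Proximal promoter sequence is shown for 3 genes from among those with the smallest p of E2 against vehicle. Plvap was the gene called in that comparison, Egfl7 followed it by p, and Cd34 came after Esam and Dll4, which are not shown. Cd34 also passed the adjusted p when E2 was averaged over the 3-MC states, as did Aplnr, which is not shown. The 250 bases before each transcription start are from RefSeq on GRCr8, at chr16:18231280-18231529 on the minus strand for Plvap, chr3:29805381-29805630 on the plus strand for Egfl7 and chr13:109008536-109008785 on the plus strand for Cd34. Each runs 5′ to 3′ on the strand of its gene. Capitals mark the letters GGAAGT or their reverse complement, a core of ETS factor sites.
Plvap: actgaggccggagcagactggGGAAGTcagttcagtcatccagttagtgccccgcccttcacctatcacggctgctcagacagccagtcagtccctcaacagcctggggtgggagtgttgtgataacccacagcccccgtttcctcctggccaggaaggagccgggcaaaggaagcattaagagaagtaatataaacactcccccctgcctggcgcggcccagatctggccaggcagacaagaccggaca
Egfl7: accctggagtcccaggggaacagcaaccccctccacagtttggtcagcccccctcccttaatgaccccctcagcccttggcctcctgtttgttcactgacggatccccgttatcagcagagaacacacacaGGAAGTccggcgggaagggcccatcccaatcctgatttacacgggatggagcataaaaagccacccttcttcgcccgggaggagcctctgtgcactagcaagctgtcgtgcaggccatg
Cd34: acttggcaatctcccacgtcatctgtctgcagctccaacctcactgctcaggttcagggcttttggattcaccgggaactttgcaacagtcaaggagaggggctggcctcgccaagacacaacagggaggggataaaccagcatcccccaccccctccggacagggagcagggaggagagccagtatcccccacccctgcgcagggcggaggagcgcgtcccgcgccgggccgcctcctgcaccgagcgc
The promoters of Plvap and Egfl7 each held 1 such core and that of Cd34 held none, in windows of 59.2%, 59.2% and 64.8% G and C. Of the 47 genes, 29 had a promoter in the RefSeq table. Searched on both strands, GGAAGT stood in 8 of them (Egfl7, Eng, Flt1, Kdr, Plvap, Sele, Tie1 and Vcam1), or 27.6%, against 19.2% of all 33469 promoters of the same length. The letters AACAAT, a core of SOX factor sites, stood in 4 of 29 (13.8%) against 10.3% of all. The letters GCGTG, the core of the xenobiotic response element bound by the aryl hydrocarbon receptor, stood in 8 of 29 (27.6%) against 25.9% of all. The full estrogen response element GGTCANNNTGACC was in none of the 29 windows and in 0.0239% of all promoters. A match is a description of these windows, not a binding site.

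E2 was compared with vehicle to ask how estrogen alone was associated with the level of vascular transcripts. Most of the 47 genes lay lower in E2 rats than in vehicle rats, by small amounts: 43 had a log2 difference below 0 (46.2% of all probe sets tested did), and the median was -0.39, against 0.02 over all probe sets. Only 1 of the 47 passed the call, Plvap, which was lower, and 0 were called higher, beside 0.287% of all probe sets called lower and 1.30% called higher. At an unadjusted p under 0.05, 25 genes were lower and 0 higher, where 4.89% of all probe sets were lower and 6.82% higher. Without vehicle rat 1, and likewise without E2 rat 2, 15 were lower, beside 3.46% and 3.7% of all probe sets. In 29 genes all 3 E2 rats lay below all 3 vehicle rats, a pattern found in 8.05% of all probe sets, and 0 genes showed the opposite order, found in 10.1%. With 3 rats per group the smallest p of an exact permutation test is 0.1, so that single genes rest on the moderated limma fit. The same limit holds for counts over the 47 genes, which were all measured in the same rats and are not independent.

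**Figure D1:**
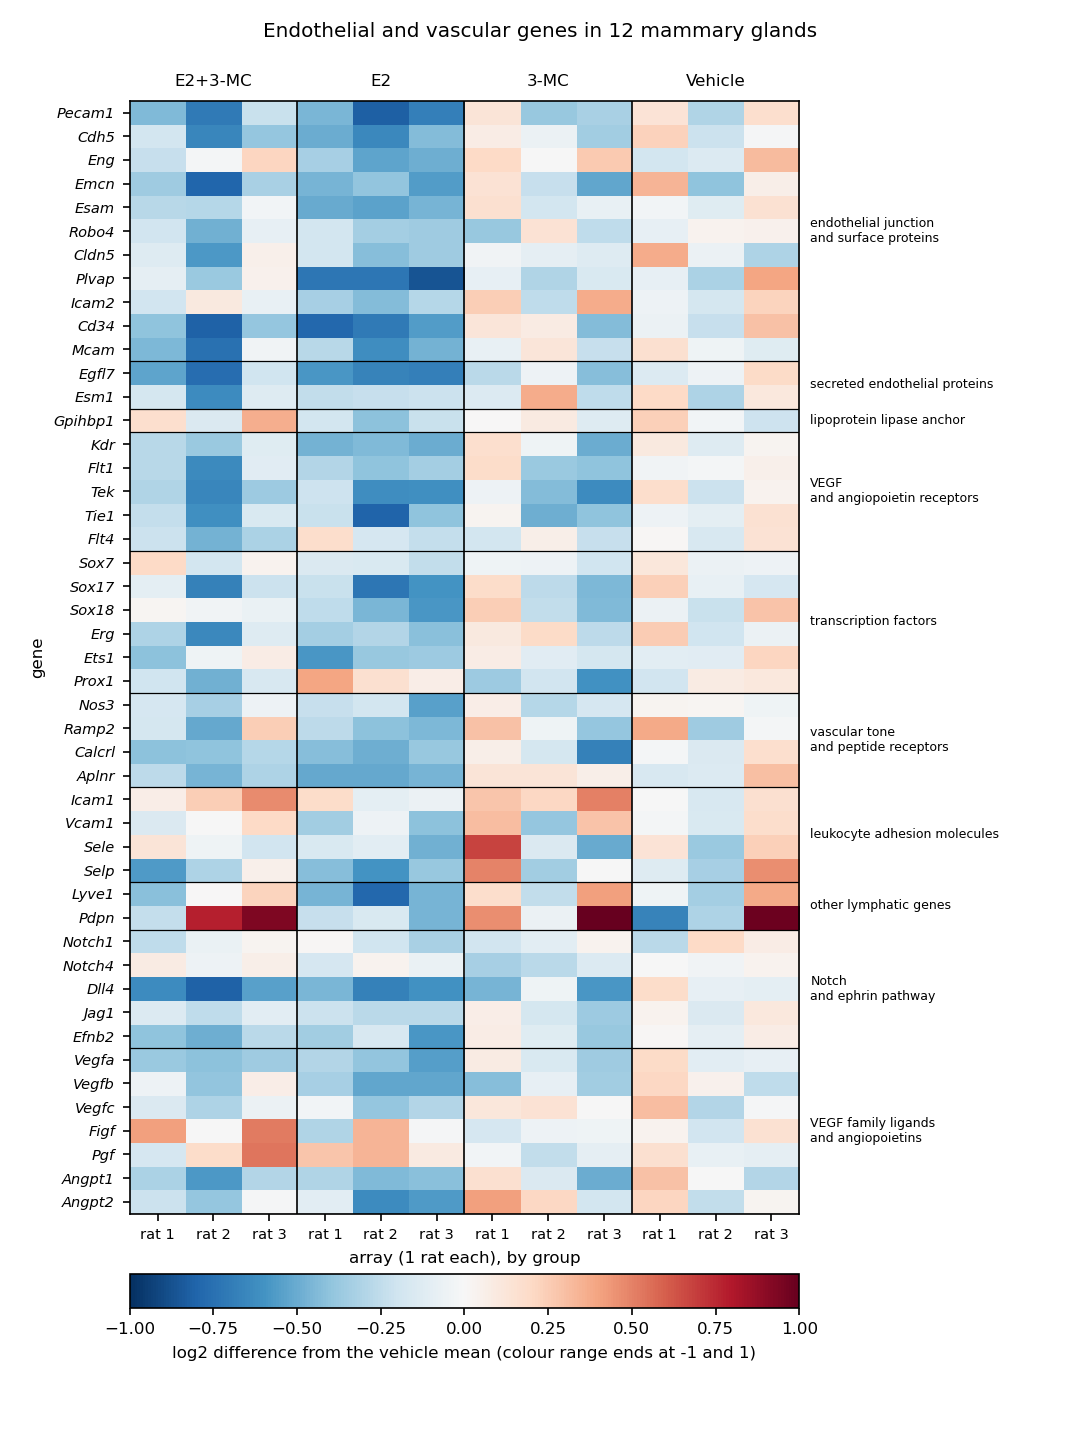
Each row is 1 of the 47 genes, grouped by role, and each column is 1 rat, ordered E2+3-MC, E2, 3-MC and vehicle. Color gives the log2 difference of log2(intensity + 16) from the mean of the 3 vehicle rats, blue for lower and red for higher, with the scale ending at -1 and 1. The E2 columns are blue in most rows, and Pdpn is dark red in some rats of the E2+3-MC, 3-MC and vehicle groups.

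The 3 classes differed in their medians with E2. The 31 general endothelial genes had a median of -0.44, with 30 below 0, 18 lower at an unadjusted p under 0.05 and 22 without overlap between E2 and vehicle rats. The 12 signal genes had a median of -0.31, with 10 below 0, 6 lower at an unadjusted p under 0.05 and 6 without overlap. The 4 lymphatic genes had a median of -0.18, with 3 below 0, 1 (Lyve1) lower at an unadjusted p under 0.05 and without overlap. Only Plvap, a general endothelial gene, was called, and the differences between the classes were not tested.

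Among the 11 junction and surface proteins, Plvap, which forms the diaphragms of fenestrae and caveolae in capillaries (probe set 10790804), moved most. Its intensity was 592, 483 and 649 in E2+3-MC rats, 375, 376 and 339 in E2 rats, 595, 509.5 and 565 in 3-MC rats, and 595, 504 and 836 in vehicle rats. The E2 rats were the 3 lowest of the 12, and every other rat exceeded them by more than the E2 rats differed among themselves. It averaged 363 ± 21.4 in E2 rats and 645 ± 171 in vehicle rats (SD, n = 3 each), and fell by 0.77 on the log2 scale (SE 0.17, limma adjusted p 0.0392), or 1.71-fold. This call did not survive every choice: the adjusted p was 0.0954 and 0.105 without vehicle rats 1 and 3, 0.13, 0.148 and 0.136 without E2 rats 1, 2 and 3, 0.0535 without 3-MC rat 3, and 0.0582 and 0.0527 without E2+3-MC rats 1 and 3. The difference itself kept its sign in all 12 of these fits (-0.93 to -0.57), and it was as large, at -0.87, with the level of skeletal muscle markers in the model (adjusted p 0.0119).

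Cd34, a sialomucin of endothelium that stromal progenitors also carry (probe set 10766869), had an intensity of 756, 566 and 765 in E2+3-MC rats, 574, 608 and 675 in E2 rats, 1091, 1062 and 739.8 in 3-MC rats, and 963, 852 and 1232 in vehicle rats. All E2 rats lay below all vehicle rats, and E2+3-MC rat 2 was the lowest of the 12. The log2 difference of E2 from vehicle was -0.69 (SE 0.18) and did not pass (limma adjusted p 0.097). Esam, an adhesion protein of endothelial tight junctions, measured 265, 263 and 319 in E2+3-MC rats, 224, 219.6 and 231 in E2 rats, 365, 285 and 308 in 3-MC rats, and 319, 297 and 362 in vehicle rats, with the E2 rats lowest and within a narrow band. Its difference was -0.50 (SE 0.13, adjusted p 0.091).

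Pecam1 and Cdh5 (VE-cadherin) are both homophilic adhesion proteins of endothelial junctions. Their SD was larger among vehicle rats (193 for Pecam1 and 122 for Cdh5) than among E2 rats (92.4 and 40.1). Pecam1 measured 814, 674 and 947 in E2+3-MC rats, 806, 625 and 684 in E2 rats, 1218, 849 and 884 in 3-MC rats, and 1220, 899 and 1246 in vehicle rats. Cdh5 measured 674, 483 and 586 in E2+3-MC rats, 542, 487 and 565 in E2 rats, 814, 738 and 600.2 in 3-MC rats, and 904, 661 and 763 in vehicle rats. For both genes the E2 and vehicle rats did not overlap, the E2+3-MC and vehicle rats did, and E2+3-MC rat 2 and E2 rat 2 were the lowest 2 of 12 for Cdh5. The log2 differences of E2 from vehicle were -0.65 for Pecam1 (SE 0.18, adjusted p 0.113) and -0.52 for Cdh5 (SE 0.16, adjusted p 0.161). With the rat number as a block, Pecam1 was called beside Plvap.

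Mcam, an adhesion molecule of endothelium and of the mural cells around it, had intensities of 708, 574 and 948 in E2+3-MC rats, 799, 626 and 697 in E2 rats, 926, 1060 and 829 in 3-MC rats, and 1090, 946 and 894 in vehicle rats. Its E2 rats lay below the vehicle rats, with a difference of -0.46 (SE 0.18, adjusted p 0.291). Eng, a coreceptor for TGF-β family ligands, had intensities of 927, 1080 and 1275 in E2+3-MC rats, 865, 755 and 774 in E2 rats, 1256, 1089 and 1313 in 3-MC rats, and 960.3, 995 and 1368 in vehicle rats, and its E2 rats were the 3 lowest of 12 (-0.45, adjusted p 0.246). Emcn, a sialoglycoprotein of capillaries and veins, Robo4, a guidance receptor that stabilizes vessels, the tight junction protein Cldn5 and the adhesion protein Icam2 completed the group, and E2 and vehicle rats overlapped for Emcn and Cldn5 among them. Over all 11 the differences with E2 spanned -0.77 to -0.29, with a median of -0.47 and 8 at an unadjusted p under 0.05.

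**Figure D2:**
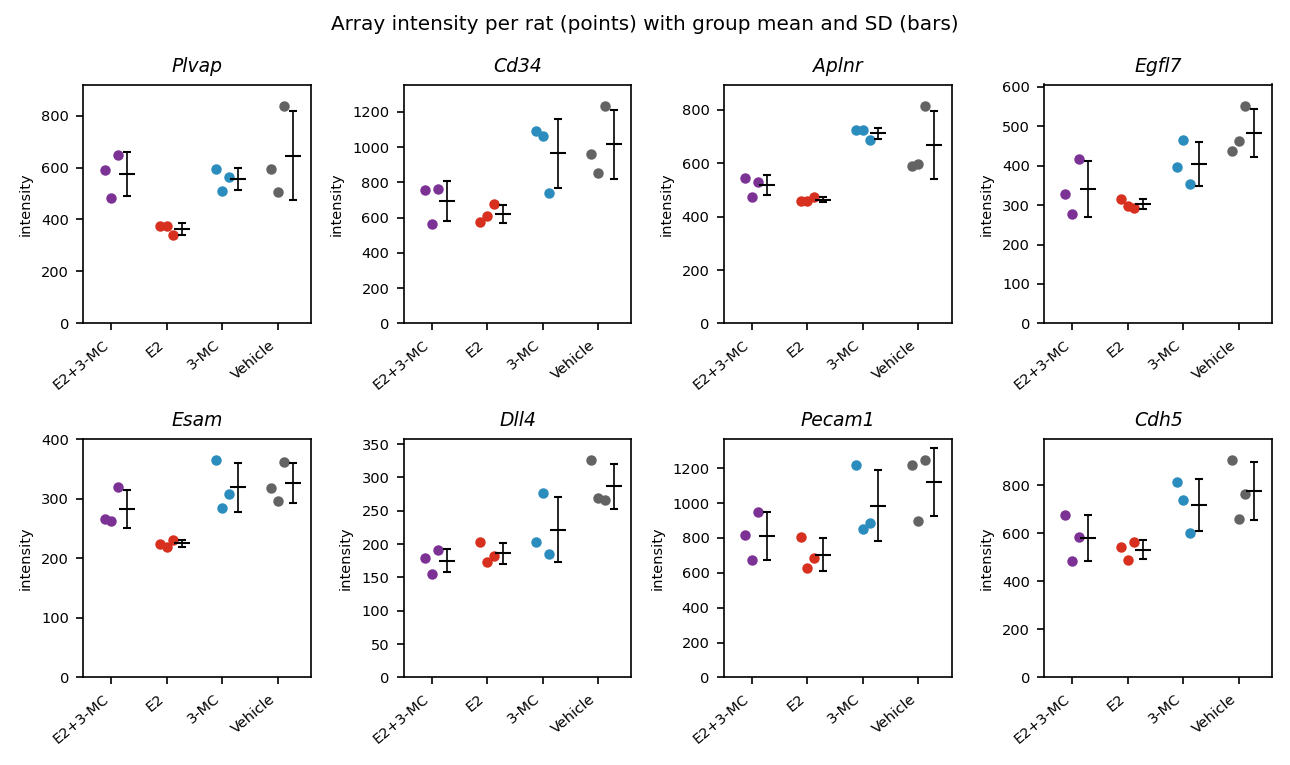
Array intensity (linear, from 0) of 8 genes in every rat, with the group mean and SD as bars beside the points (n = 3 rats per group), in the order E2+3-MC, E2, 3-MC and vehicle. E2 rats lie below every vehicle rat in all 8 panels, and for Plvap the E2+3-MC rats lie between 483 and 649, above the E2 rats.

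Of the secreted endothelial proteins, Egfl7, an extracellular matrix protein that guides vessel tube formation, measured 329, 277 and 417 in E2+3-MC rats, 316, 297 and 293 in E2 rats, 396, 464 and 353 in 3-MC rats, and 436, 462 and 550.5 in vehicle rats. Its E2 rats lay within 293 to 316 and none reached a vehicle rat. The log2 difference was -0.64 (SE 0.16, limma adjusted p 0.0634). Esm1, a proteoglycan of growing vessel tips, averaged 206 ± 2.77 in E2 rats and 247 ± 46.8 in vehicle rats (SD, n = 3 each), and these rats overlapped. Gpihbp1, which anchors lipoprotein lipase on capillaries, averaged 440.1 ± 37.2 in E2 rats and 538 ± 86.4 in vehicle rats (SD, n = 3 each), also with overlap.

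The receptors of VEGF and of the angiopoietins all lay below 0 with E2, with a median of -0.47 over 5 genes and 3 at an unadjusted p under 0.05. Kdr, the main signaling receptor for VEGF-A, averaged 381 ± 7.81 in E2 rats and 534 ± 43.8 in vehicle rats (SD, n = 3 each), with a log2 difference of -0.47 (adjusted p 0.204). Flt1, a VEGF receptor that also acts as a decoy, averaged 329 ± 12.9 in E2 rats and 421 ± 14.3 in vehicle rats (SD, n = 3 each). Neither Kdr nor Flt1 overlapped between E2 and vehicle rats. Tek (Tie2), the angiopoietin receptor, measured 347, 269 and 332 in E2+3-MC rats, 373, 275 and 277 in E2 rats, 418, 316 and 274 in 3-MC rats, and 491, 371 and 444 in vehicle rats. E2 rat 1 overlapped with vehicle rat 2, and the difference of -0.48 had an adjusted p of 0.27. Tie1, its related orphan receptor, averaged 191 ± 40.5 in E2 rats and 269 ± 26.6 in vehicle rats (SD, n = 3 each).

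The transcription factors of general endothelium also lay below 0 with E2. Erg and Ets1, both of the ETS family, averaged 319 ± 14.9 in E2 rats and 415 ± 70.5 in vehicle rats for Erg and 345 ± 30.2 in E2 rats and 476 ± 65.7 in vehicle rats for Ets1 (SD, n = 3 each). Sox17 averaged 139 ± 29.1 in E2 rats and 204 ± 33.3 in vehicle rats, and Sox18 averaged 195 ± 24.3 in E2 rats and 269.6 ± 53.2 in vehicle rats (SD, n = 3 each). Sox7 had the smallest difference of these factors (-0.18). E2 and vehicle rats did not overlap for any of these 5 factors, and 3 of them (Sox17, Sox18 and Ets1) were lower at an unadjusted p under 0.05, with adjusted p of 0.314, 0.35 and 0.222.

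Aplnr, the apelin receptor of venous and sprouting endothelium (probe set 10837424), had the clearest separation among the 4 genes of vascular tone and peptide signaling. Its intensity was 547, 475 and 530.2 in E2+3-MC rats, 459, 457 and 474 in E2 rats, 723, 723 and 689 in 3-MC rats, and 588, 598 and 814 in vehicle rats. All 6 rats given E2 lay below all 6 rats not given E2, while 3-MC and vehicle rats overlapped. The log2 difference of E2 from vehicle was -0.50 (SE 0.13, adjusted p 0.102). Calcrl, the adrenomedullin receptor, averaged 389 ± 14.4 in E2 rats and 532 ± 60.3 in vehicle rats, its partner Ramp2 averaged 364 ± 26.1 in E2 rats and 487 ± 128 in vehicle rats, and Nos3, endothelial nitric oxide synthase, averaged 140.3 ± 20.4 in E2 rats and 178 ± 4.63 in vehicle rats (SD, n = 3 each). Of these 3, Ramp2 overlapped between the E2 and vehicle rats.

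The leukocyte adhesion molecules Icam1, Vcam1, Sele and Selp, which capture white blood cells on activated endothelium, had a median of -0.26 with E2 and 0 at an unadjusted p under 0.05. Icam1 averaged 154 ± 18.4 in E2 rats and 153 ± 18.5 in vehicle rats, a log2 difference of 0.01 (SD, n = 3 each). Selp (P-selectin) was the only one of the 4 without overlap, at 78.3 ± 7.42 in E2 rats and 118 ± 40.1 in vehicle rats (SD, n = 3 each).

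The lymphatic genes did not move together. Lyve1, a hyaluronan receptor of lymphatic endothelium that some macrophages also carry, measured 544, 734 and 859.8 in E2+3-MC rats, 527, 419 and 525 in E2 rats, 831, 615 and 977 in 3-MC rats, and 711, 577 and 957 in vehicle rats. Its E2 rats were the 3 lowest of 12, with a log2 difference from vehicle of -0.57 (SE 0.22, adjusted p 0.292). Prox1, the transcription factor that sets lymphatic identity, measured 119.7, 95.8 and 124 in E2+3-MC rats, 188, 158 and 147 in E2 rats, 105, 120.1 and 86.5 in 3-MC rats, and 121, 148 and 152 in vehicle rats. E2 rat 1 was the highest of 12, the E2 and vehicle rats overlapped, and the difference of 0.21 had an adjusted p of 0.686. Flt4, the receptor of VEGF-C and VEGF-D, averaged 98.1 ± 17.9 in E2 rats and 104 ± 12.7 in vehicle rats (SD, n = 3 each) with a difference of -0.08.

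Pdpn (podoplanin), a membrane mucin of lymphatic endothelium that fibroblasts and other cells also carry, had intensities of 934, 1907 and 2121 in E2+3-MC rats, 940.0, 995 and 796 in E2 rats, 1535, 1059 and 3089 in 3-MC rats, and 689.7, 889 and 2192 in vehicle rats. Within each of the E2+3-MC, 3-MC and vehicle groups its highest rat was more than 2 times its lowest, whereas the E2 rats were close together. With this spread the E2 difference was -0.28 with a standard error of 0.43, and the data do not resolve a change of this size. A list of 5 further lymphatic genes (Reln, Ccl21, Nr2f2, Sema3d and Maf) had a median of -0.17, 0 calls and 0 at an unadjusted p under 0.05.

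**Figure D3:**
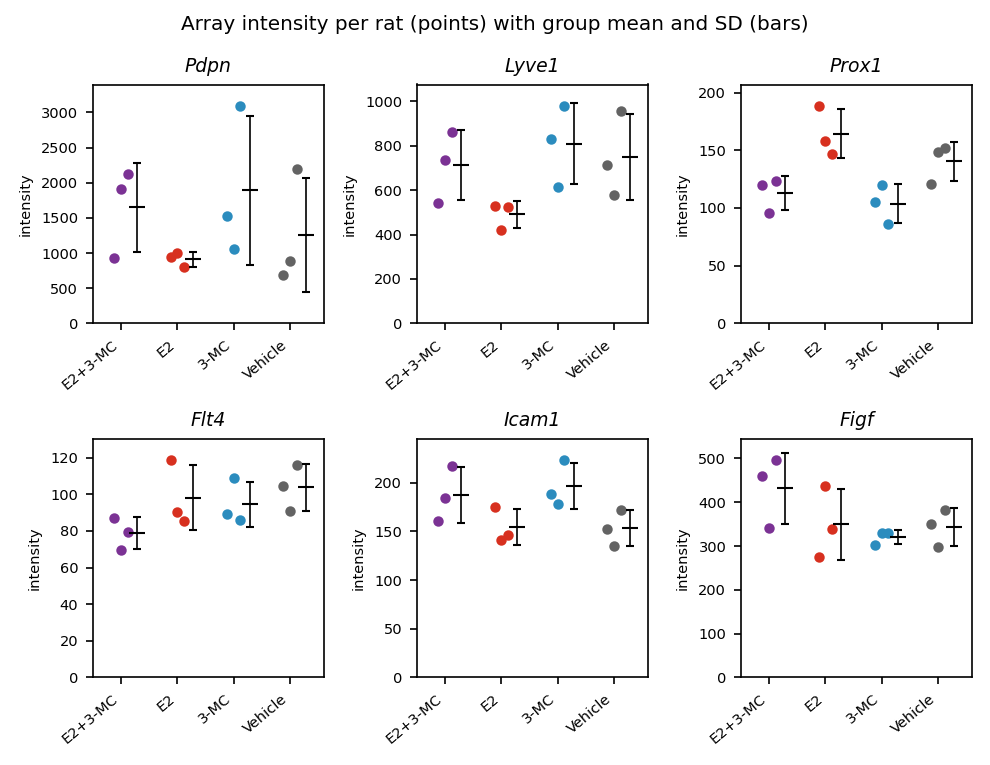
Array intensity (linear, from 0) of the 4 lymphatic genes and of Icam1 and Figf in every rat, with the group mean and SD as bars (n = 3 rats per group), in the order E2+3-MC, E2, 3-MC and vehicle. Pdpn spans 690 to 3089, and Prox1 is higher in every E2 rat than in any E2+3-MC or 3-MC rat.

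Among the angiogenic signals, Dll4, the Notch ligand of tip cells and arteries, measured 179, 156 and 190.5 in E2+3-MC rats, 203, 173 and 182 in E2 rats, 203, 277 and 186 in 3-MC rats, and 326, 269 and 266 in vehicle rats. Vehicle rats lay above all E2 and all E2+3-MC rats, and 3-MC rat 2 fell among the vehicle rats. The log2 difference with E2 was -0.58 (SE 0.15, limma adjusted p 0.092). The other Notch and ephrin genes differed less: Efnb2, an arterial ephrin, averaged 128 ± 21.2 in E2 rats and 168 ± 10.3 in vehicle rats, Jag1, a Notch ligand, averaged 292 ± 6.44 in E2 rats and 351 ± 32.6 in vehicle rats (SD, n = 3 each), and the receptors Notch1 and Notch4 had differences of -0.17 and -0.07.

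Vegfa, the main growth factor of blood vessels, had intensities of 404, 393 and 409 in E2+3-MC rats, 427, 399 and 355 in E2 rats, 561, 474 and 409.9 in 3-MC rats, and 606, 488 and 497 in vehicle rats. All rats given E2, with or without 3-MC, lay below all vehicle rats, and E2+3-MC rats also lay below all 3-MC rats. The log2 difference of E2 from vehicle was -0.41 (SE 0.14, adjusted p 0.206). Vegfb averaged 245 ± 19.5 in E2 rats and 344 ± 57.1 in vehicle rats and Vegfc, a lymphatic growth factor, 197 ± 28.4 in E2 rats and 237 ± 52.5 in vehicle rats (SD, n = 3 each), with overlap for Vegfc. Pgf (placental growth factor) and Figf (VEGF-D) had differences of 0.24 and 0.01 and were the only signal genes above 0 with E2. The angiopoietins Angpt1 and Angpt2, ligands of Tek, had differences of -0.39 and -0.43, each at an unadjusted p under 0.05 and with adjusted p of 0.424 and 0.383.

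Further genes of the same pathways were counted from lists that hold no member. Of 25 further endothelial genes, 0 were called in limma, 11 were lower and 0 higher at an unadjusted p under 0.05, and 12 did not overlap between E2 and vehicle rats, with a median of -0.29. S1pr1, the sphingosine-1-phosphate receptor of endothelium, passed the adjusted p (0.0384) at -0.54, below 1.5-fold. Of 24 further signal genes, such as the neuropilins and Notch targets, 0 were called, 1 was lower and 2 were higher at an unadjusted p under 0.05, and the median was -0.08. Among 12 genes of pericytes and smooth muscle, the cells around vessels, 1 was called, Abcc9, a potassium channel subunit, at -0.69 (adjusted p 0.0394), and the median was -0.31. Abcc9 had 2 single-symbol probe sets, of which the brighter was used. The part of skeletal muscle in the values of this list was not tested.

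3-MC alone was compared with vehicle to ask for an effect of the aryl hydrocarbon receptor ligand without estrogen. None of the 47 genes was called in limma, and 0 of the 23371 probe sets were (0%). At an unadjusted p under 0.05, 1 gene was higher and 2 were lower (3.06% and 1.18% of all probe sets), and the methods' t-test with adjustment gave 0. The median was -0.11 against 0.06 over all probe sets, with 35 genes below 0 (36.5% of all probe sets).

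Prox1 averaged 104 ± 16.8 in 3-MC rats and 140.3 ± 17.2 in vehicle rats (SD, n = 3 each), and every 3-MC rat lay below every vehicle rat, a difference of -0.39 (SE 0.15, limma adjusted p 0.92). Notch4, a Notch receptor of endothelium, measured 164, 148 and 161 in E2+3-MC rats, 135, 159 and 147 in E2 rats, 119, 125 and 139 in 3-MC rats, and 154, 150.3 and 159 in vehicle rats. Its 3-MC rats also lay below all vehicle rats, by -0.24 (SE 0.11, adjusted p 0.92). Icam1 measured 161, 184 and 217 in E2+3-MC rats, 175, 142 and 146 in E2 rats, 188, 178 and 223 in 3-MC rats, and 153, 135 and 172 in vehicle rats. Each 3-MC rat exceeded each vehicle rat, with a difference of 0.33 (SE 0.15, adjusted p 0.92). These were the only 3 genes without overlap, 1 higher and 2 lower, beside 4.71% and 2.31% of all probe sets. Dll4 had a difference of -0.36 (SE 0.15, adjusted p 0.92) and Tek of -0.37 (SE 0.18, adjusted p 0.92), with overlapping rats, although each 3-MC rat had less Tek than the vehicle rat of its number. The labels do not say that a number is shared between groups, and the fit reported has no block. With the number as a block, 4 genes were lower at an unadjusted p under 0.05, beside 1.57% of all probe sets. These were Tek, Prox1, Notch4 and Dll4, each with a limma adjusted p of 0.766. Leaving out 1 rat gave 0 to 2 higher genes and 1 to 5 lower genes, with 5 lower without 3-MC rat 1, 4 without 3-MC rat 2, and 1 without 3-MC rat 3 or vehicle rat 1. Of all probe sets, 2.42%, 0.98%, 1.28% and 0.988% were lower without these rats, in that order.

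**Figure D4:**
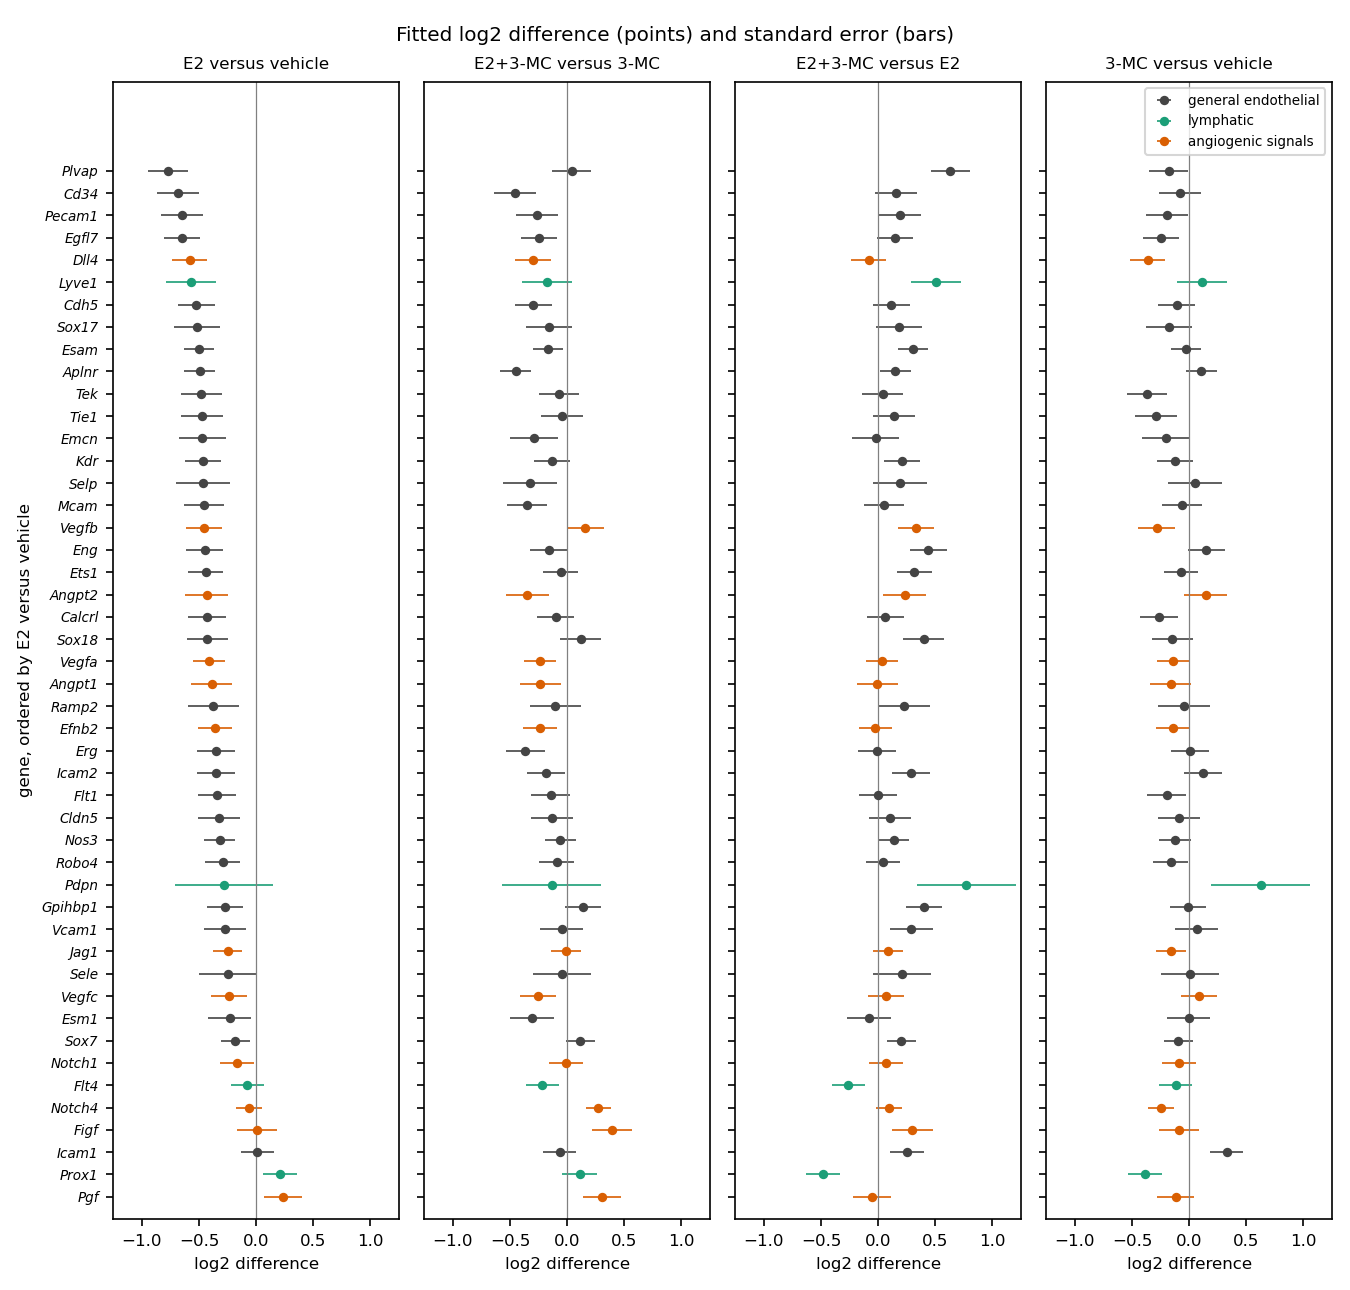
Fitted log2 differences (points) with standard errors (bars) for the 47 genes in 4 comparisons, colored by class and ordered by the difference of E2 from vehicle. Most points lie left of 0 for E2 versus vehicle (43 of 47) and for E2+3-MC versus 3-MC (38 of 47), and right of 0 for E2+3-MC versus E2 (37 of 47). Of all probe sets, 46.2%, 46.4% and 40.9% lay left of 0 in these comparisons, in that order.

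E2+3-MC was set against E2 alone to ask whether 3-MC moved the vascular genes in the presence of estrogen. No gene was called in limma, as for all probe sets (0%), and the methods' t-test gave 0, also over all probe sets. The log2 difference was above 0 in 37 genes and below 0 in 10, where 40.9% of all probe sets lay below 0. The median was 0.15, against 0.05 over all probe sets. At an unadjusted p under 0.05, 6 genes were higher (Eng, Esam, Sox18, Plvap, Gpihbp1 and Lyve1) and Prox1 was lower, beside 5.99% and 2.77% of all probe sets. In 9 genes all E2+3-MC rats lay above all E2 rats (Kdr, Eng, Esam, Sox18, Plvap, Icam2, Aplnr, Gpihbp1 and Lyve1), beside 12% of all probe sets, and in 1 (Prox1) all lay below, beside 5.93%. The E2 rats enter both this comparison and that with vehicle, so that their values move both. The 6 higher genes rested on few rats: 1 (Plvap) was higher without E2+3-MC rat 3 and 2 (Plvap and Figf) without E2 rat 2, whereas Prox1 was lower in all 12 fits that left out a rat. The median was 0.07 without E2+3-MC rat 3.

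Plvap averaged 575 ± 84.3 in E2+3-MC rats and 363 ± 21.4 in E2 rats (SD, n = 3 each), a difference of 0.63 (SE 0.17, limma adjusted p 0.397). With only these 6 arrays in the fit, its adjusted p was 0.0445. Prox1 averaged 113 ± 15 in E2+3-MC rats and 164 ± 21.3 in E2 rats, a difference of -0.48 (SE 0.15, adjusted p 0.436), with each E2+3-MC rat below each E2 rat. Eng averaged 1094 ± 174 in E2+3-MC rats and 798 ± 58.8 in E2 rats (0.44, SE 0.16, adjusted p 0.49), and Lyve1 averaged 713 ± 159 in E2+3-MC rats and 491 ± 61.8 in E2 rats (0.51, SE 0.22, adjusted p 0.552). Gpihbp1 measured 602, 480.3 and 692 in E2+3-MC rats, 467, 398 and 456 in E2 rats, 535, 568 and 487 in 3-MC rats, and 631, 522 and 461 in vehicle rats. Its E2+3-MC rats lay above all E2 rats (0.40, SE 0.16, adjusted p 0.511) and overlapped with the 3-MC and vehicle rats.

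Markers of immune cells had larger medians than the 47 genes in the same comparison of E2+3-MC with E2. The 12 myeloid markers had a median of 1.02, with 9 higher at an unadjusted p under 0.05, and the 8 lymphocyte markers had a median of 0.88, with 7 higher, and 0 of either list were called in limma. The level of the lymphocyte list, the median over its genes of the log2 difference from the vehicle mean, was 0.18 to 1.16 in E2+3-MC rats and -0.31 to -0.22 in E2 rats. In 3-MC rats against vehicle rats the medians were 0.59 for myeloid and 0.52 for lymphocyte markers, with 1 and 2 higher at an unadjusted p under 0.05. The part of immune cells in the values of the vascular genes was not tested.

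E2+3-MC was also compared with each of its other references. Against vehicle, 0 of the 47 genes were called in limma (0.163% of all probe sets were), 14 were lower and 0 higher at an unadjusted p under 0.05 (2.73% and 6.99% of all probe sets), and the median was -0.22. The 14 became 3 (Egfl7, Dll4 and Vegfa) without E2+3-MC rat 2, 6 without vehicle rat 1, 6 without vehicle rat 3 and 6 with the level of skeletal muscle markers in the model. Of all probe sets, 1.07%, 1.45%, 2.86% and 1.62% were lower in these fits. The median was -0.34 without E2+3-MC rat 3. In 13 genes all E2+3-MC rats lay below all vehicle rats, beside 3.68% of all probe sets: Flt1, Tek, Tie1, Egfl7, Nos3, Cd34, Calcrl, Aplnr, Flt4, Dll4, Efnb2, Vegfa and Angpt1. The smallest p was that of Dll4, at -0.66 (SE 0.15, adjusted p 0.176). Against 3-MC alone, 0 genes were called (0.111% of all), 3 were lower (Erg, Cd34 and Aplnr) and 2 higher (Notch4 and Figf) at an unadjusted p under 0.05 (2.22% and 2.81% of all), and 38 lay below 0 (46.4% of all) with a median of -0.14. These counts moved with single rats: 11 genes were lower without 3-MC rat 3, 5 without E2+3-MC rat 3, and 1 (Aplnr) without 3-MC rat 1 or E2+3-MC rat 2, and Aplnr was lower in all 12 such fits. Of all probe sets, 4%, 3.95%, 1.42% and 1.08% were lower without these rats, in that order. Notch4 and Figf were both higher in 5 of the 12 fits. Aplnr, Vegfa and Vegfc lay lower without overlap, beside 3.48% of all probe sets, and Notch4 and Figf higher, beside 4.48%.

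Averaged over rats without and with 3-MC, the E2 difference was below 0 in 43 of the 47 genes and in 31 of 31 general endothelial genes, with a median of -0.26 (43.7% of all probe sets were below 0). In limma 0 genes were called, where 1.12% of all probe sets were. Without the 1.5-fold threshold, 2 genes passed the adjusted p and both were lower, Aplnr at -0.47 (SE 0.09, adjusted p 0.0244) and Cd34 at -0.57 (SE 0.13, adjusted p 0.045), beside 0.620% of all probe sets. Leaving out 1 rat at a time, Aplnr passed in 6 of 12 fits (adjusted p 0.0255 to 0.0767) and Cd34 in 2 of 12 (0.0192 to 0.121). With the rat number as a block Cd34 missed the threshold (adjusted p 0.0519) and Aplnr passed (adjusted p 0.0239). At an unadjusted p under 0.05, 25 genes were lower and 1, Pgf, was higher (5.71% and 6.63% of all probe sets), and 16 were lower without 3-MC rat 1 (4.37% of all).

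The genes next in order of p were Dll4 (-0.44, adjusted p 0.0637), Egfl7 (-0.45, adjusted p 0.0678), Cdh5 (-0.41, adjusted p 0.101), Esam (-0.33, adjusted p 0.103), Pecam1 (-0.46, adjusted p 0.105), Vegfa (-0.33, adjusted p 0.135), Mcam (-0.41, adjusted p 0.142) and Plvap (-0.37, adjusted p 0.187), with standard errors of 0.09 to 0.13. All 10 of these leading genes lay lower with E2, and only Aplnr had all 6 rats given E2 below the other 6, a pattern found in 0.492% of all probe sets. Dll4 and Vegfa are ligands, Aplnr is a receptor, and the other 7 are structural or secreted endothelial proteins.

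The interaction, which asks whether the E2 difference depends on 3-MC, was called for 0 of the 47 genes in limma and for 0 probe sets (0%). At an unadjusted p under 0.05, 3 genes were positive, Plvap at 0.81 (SE 0.24, adjusted p 0.973), Vegfb at 0.62 and Sox18 at 0.55, and 0 were negative, beside 1.59% and 2.83% of all probe sets. The count of positive genes was 9 without 3-MC rat 1, 7 without E2+3-MC rat 2, 14 after quantile normalization applied again and 12 with array weights, with 0 called in each. The share of all probe sets that was positive in these fits was not counted, so that these counts have no background to be read against. The E2 difference of Plvap was -0.77 without 3-MC and 0.04 with 3-MC. Over the 47 genes the median interaction was 0.23, against -0.01 over all probe sets, and the E2 difference is not shown to depend on 3-MC for any single gene after adjustment. Averaged over the E2 states, the 3-MC difference had a median of 0.00, or -0.04 and -0.05 after quantile normalization or centring of the arrays, with 0 calls in limma. Eng (0.29), Icam1 (0.29) and Pdpn (0.70) were higher and Prox1 (-0.44) lower at an unadjusted p under 0.05, with adjusted p of 0.471, 0.448, 0.508 and 0.419, beside 7.71% higher and 1.76% lower of all probe sets.

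Markers of other cells of the gland moved beside the vascular genes. The level of a list in a rat is the median over its genes of the log2 difference from the vehicle mean. The general endothelial level was -0.45 to -0.33 in E2 rats and -0.15 to 0.15 in vehicle rats. The level of 13 adipocyte markers was -0.62 to -0.38 in E2 rats and -0.14 to 0.09 in vehicle rats, with 4 of 13 called lower: Retn (resistin, -1.60), Pparg (the master regulator of fat cells, -1.02), Slc2a4 (the insulin-responsive glucose transporter, -0.98) and Lpl (lipoprotein lipase, -0.72). That of 12 fibroblast markers was -0.54 to -0.26 in E2 rats and -0.10 to 0.27 in vehicle rats, with 0 of 12 called. The median E2 difference was -0.50 for the 13 adipocyte markers, with 10 lower and 0 higher at an unadjusted p under 0.05. For the 12 fibroblast markers it was -0.47, with 7 lower and 1 higher. These medians lay near the -0.44 of the 31 general endothelial genes, of which 18 were lower (4.89% of all probe sets were). The level of 16 luminal epithelial markers was higher, 0.54 to 0.85 in E2 rats and -0.08 to 0.13 in vehicle rats, with 8 of 16 called, led by Foxa1 (0.99), St14 (0.97), Cldn7 (0.96) and Gata3 (0.93). Their part in the endothelial difference was not tested.

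Skeletal muscle markers varied more between rats than the lists above, with levels of -2.87 to -0.32 in E2 rats and of -3.90 to 2.22 in vehicle rats, where rat 3 was far below the other 2. By rat number the levels were 1.77, 2.22 and -3.90 in vehicle rats and 1.06, 1.64 and -3.72 in 3-MC rats. With the muscle level as a covariate, 1 gene was still called with E2 and the median over the 47 genes was -0.38. The myeloid level was 0.10, 0.95 and 0.78 in E2+3-MC rats, -0.57, -0.55 and -0.23 in E2 rats, 0.93, -0.10 and 0.98 in 3-MC rats, and -0.20, -0.64 and 0.83 in vehicle rats. With E2 against vehicle 1 of the 12 myeloid genes was called, Cd14, a coreceptor for bacterial lipopolysaccharide, which was higher (0.84, adjusted p 0.037), while the list's median was -0.47, and the 8 lymphocyte genes had a median of -0.27 with 0 calls in limma and 0 at an unadjusted p under 0.05. The 5 highest rats by myeloid level were also the 5 highest rats for Pdpn, Lyve1 and Vcam1, an order noticed after the values were seen, while 6 other genes shared 4 of the 5 rats and 38 shared 3 or fewer. Lyve1 and Pdpn are carried by cells other than lymphatic endothelium, and the part of immune cells in their values was not tested.

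**Figure D5:**
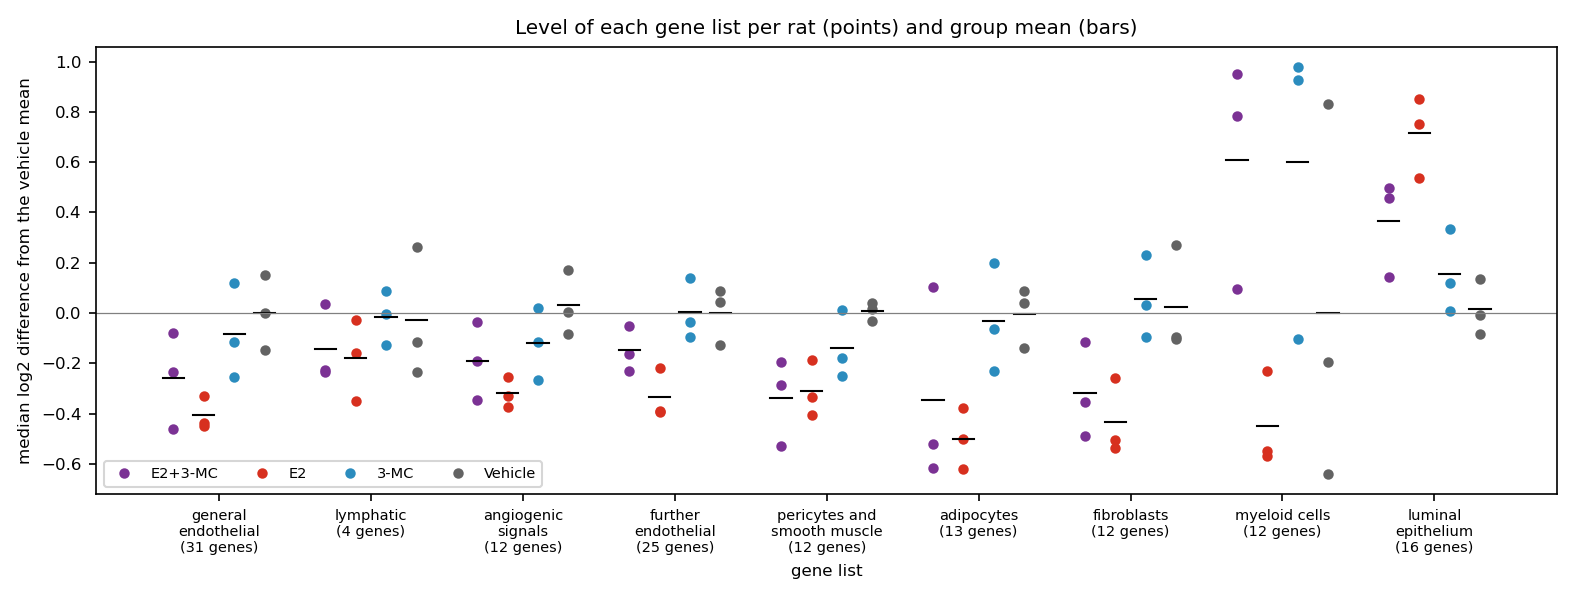
Level of the 3 classes and of 6 other gene lists in every rat (points), with the group mean as a bar, in the order E2+3-MC, E2, 3-MC and vehicle. The vertical axis is the median log2 difference of a list's genes from the vehicle mean. The 3 E2 rats lie below the 3 vehicle rats for the general endothelial, angiogenic signal, further endothelial, mural, adipocyte and fibroblast lists and above them for luminal epithelium.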

How the data were processed

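Total RNA of 12 mammary glands, 3 rats in each of 4 groups, was hybridized to Affymetrix rat gene arrays, 1 array per rat. The submitters' processing notes name PLIER and Affymetrix Expression Console without their roles. In the methods the authors checked quality in Expression Console and used GeneSpring for quantile normalization by PLIER, a baseline transformation to the controls' median and a filter on the lowest intensities. The deposited intensity values are linear, hold every one of 29214 probe sets, are not centred on the controls and have unequal array medians; they were used as given. Gene symbols came from the platform annotation (15310 probe sets with 1 symbol, 323 with several, 13581 with none listed), which was brought up to date through RefSeq. No genome build of the arrays is given in the sources used here.

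Probe sets whose mean log2(intensity + 16) exceeded the 20th percentile (23371) were fitted in R 4.3.3 with limma 3.58.1, with 4 group means, 1 moderated spread and two-sided tests adjusted by Benjamini-Hochberg over all of them. The comparisons were each treatment against vehicle, the combination against either agent alone, E2 and 3-MC each averaged over the other, and their interaction. Every gene of the list is named. Values per rat and, in the comparison that selected the gene, the standard error and adjusted p are given for genes called anywhere, for the 10 smallest p of the averaged E2 comparison and for the 5 smallest p of E2 against vehicle, 3-MC against vehicle and E2+3-MC against E2; Pdpn was added for its spread, after its values were seen. Genes of other lists are named where called with E2 against vehicle, at most 4 per list, with S1pr1 added after its values were seen. The members and all lists were chosen with earlier results of these data known. The lists were further endothelial, signal and lymphatic genes, and markers of mural cells, adipocytes, fibroblasts, luminal epithelium, myeloid cells, lymphocytes and skeletal muscle.

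The methods' t-test, other filters, pseudocounts, scalings, models and thresholds, a replicate block and leaving out each rat were alternatives. Labels number the rats of a group 1 to 3 without saying that a number is shared. Deviations of same-numbered rats from their group means correlated at 0.341, 0.442 and 0.564 between the 3-MC and vehicle groups. No other 2 groups had all 3 correlations above 0.1. The levels of skeletal muscle markers ran in the same order by number in the 3-MC and vehicle groups, and their part in these correlations was not tested. A pairing is thus not established, and the fit reported has no block. The result with the number as a block stands beside it. Rats are separate animals. The number of arrays limits the precision, and the fit was tested on simulated data. Python 3.11.15 with matplotlib 3.10.9 drew the figures.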

Additional observations from a re-analysis of the deposited data

How the results depend on the processing

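The count of endothelial and vascular genes called with E2 against vehicle, 1 (Plvap, lower), depended on the processing. It was 0 with a pseudocount of 1, with only the 6 arrays of the comparison, with a 2-fold threshold and with the methods' t-test, and it was 4 after quantile normalization applied again, 4 with arrays centred on their medians and 6 with array weights. Over all probe sets these fits called 325, 341, 205, 7, 490, 465 and 652, in that order, beside 370 in the fit reported. The fit with the replicate block gave 2 (Plvap and Pecam1), with 479 of all probe sets called. Leaving out 1 rat at a time gave 0 to 2. It was 0 without vehicle rat 1 or 3, any E2 rat, 3-MC rat 3 or E2+3-MC rat 1, and 2 (Plvap and Egfl7) without 3-MC rat 2. Over all probe sets these fits called 172, 392, 116, 89, 242, 373, 334 and 449, in that order. Without E2+3-MC rat 3 the 1 gene called was Egfl7 (adjusted p 0.0482) and not Plvap, where 297 of all probe sets were called. Plvap had an adjusted p of 0.0539 with a pseudocount of 1, 0.0828 with only the 6 arrays and 0.369 in the methods' t-test. For E2+3-MC against E2, 1 gene (Plvap, higher) was called with only the 6 arrays, where 359 of all probe sets were called. For E2 averaged over the 3-MC states, 1 gene (Cd34) was called with centred arrays and 2 (Aplnr and Cd34) without a fold threshold, and leaving out 1 rat gave 0 to 1, with Cd34 called without vehicle rat 2 or 3-MC rat 3. Over all probe sets these 4 fits called 286, 390, 241 and 260, in that order.

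The other counts of called genes were 0 in every alternative run, and the replicate block changed no other count of called genes. With that block Cd34 no longer passed the adjusted p for E2 averaged over the 3-MC states (0.0519), and the genes lower at an unadjusted p under 0.05 were 28 for E2 against vehicle and 4 for 3-MC against vehicle. Of all probe sets, 5.81% and 1.57% were lower there. The medians over the 47 genes moved by less than the spread between rats in all 200 alternatives, and the E2 against vehicle median was -0.45 to -0.35 when 1 rat was left out. That spread, an SD of 0.08 to 0.17 within the groups, was about as large as the smaller medians, such as -0.11 for 3-MC against vehicle. The rule therefore does not show that small medians held. With 1 rat left out, the median of E2+3-MC against E2 was 0.07 to 0.22. With 3-MC against vehicle, 11 genes were lower at an unadjusted p under 0.05 after quantile normalization, 4 with centred arrays, 6 with array weights and 2 in the fit reported. Of all probe sets, 3.59%, 3.06%, 1.75% and 1.18% were lower in these fits. With E2+3-MC against vehicle the counts of lower genes were 22, 23 and 16, with 14 in the fit reported and 6 in the methods' t-test. The shares of all probe sets were 6.55%, 7.6%, 3.03%, 2.73% and 1.77%. With E2+3-MC against 3-MC the counts were 5, 8 and 1, with 3 in the fit reported, beside 3.46%, 5.13%, 2.05% and 2.22% of all probe sets. The shares over all probe sets thus moved with the scaling as well. The median of E2+3-MC against E2 was 0.09 with centred arrays, against -0.01 over all probe sets. The cause of these shifts was not tested. The methods' t-test was run on comparisons of 2 groups only. With 3 rats per group, a gene that missed the threshold is not shown to be unchanged. The probe sets do not separate transcript isoforms.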
